A study of Mus musculus with 6 samples.

Results

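The genes described here are the mouse RNF, TRIM, Siah and Lonrf genes, most of which encode ubiquitin ligases with a RING finger. A gene was a member if an array probe set was annotated with its symbol alone and that symbol was Rnf or Trim with a number, or one of the Siah and Lonrf genes. This gave 147 of the 22180 genes tested, namely 77 Rnf, 63 Trim, 4 Siah and 3 Lonrf genes, each read by its brightest probe set over all 6 arrays. A further 9 RefSeq genes of this name pattern had no probe set of their own and were not analysed here. The rule used the names, but the set was proposed with earlier results of these data known, so its share of calls is not independent evidence. Neither ligase activity nor protein was measured.

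The knockdown samples were 3 samples of primary hippocampal cells, prepared from mouse embryos at day 18 of gestation and infected with AAV1/2 particles that knock down Diras2, a small GTPase of the Ras family. The 3 control samples were cells of the same kind given AAV1/2 with a scrambled construct. Infection followed 7 days after seeding, and total RNA was taken 7 days after that, in both groups. All arrays thus come from infected cells, no second knockdown construct is named, and strain and embryo sex are not in the labels. The samples are labelled as biological replicates, but no litter or culture is named for them, so the p-values describe the scatter of these 6 samples, which can include technical scatter. Diras2 was 7.17, 6.23 and 6.08 in the knockdown arrays, against 10.17, 10.17 and 9.76 in the control arrays, on the log2 RMA scale used for all levels here. The difference of -3.54 (SE 0.27) had an adjusted p of 0.000630 by limma, and an exact two-sided permutation test of this gene alone gave 0.1, the smallest p that 3 against 3 arrays allow.

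Ubiquitin is attached to proteins by an E1 activating enzyme, an E2 conjugating enzyme and an E3 ligase that picks the substrate. A RING finger holds a charged E2 next to the substrate, whereas RING-between-RING ligases first take the ubiquitin onto a cysteine of their own. TRIM proteins place a RING, B-boxes and a coiled coil in a row. In neurons such ligases act on axon guidance receptors, synaptic scaffolds and misfolded proteins, and several TRIM proteins act in antiviral defence.

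Of the 147 members, 18 rose and 8 fell in the knockdown samples at an adjusted p under 0.05 by limma, and 121 did not pass. Together 17.7% of members were called, where 7.80% of all genes tested were called. The members that rose were 12.2%, where 4.17% of all genes rose, and those that fell were 5.44%, where 3.64% of all genes fell. Brightness bears on these shares. Among genes with a mean level of at least 5, 18 of 97 members rose and 7 fell, or 18.6% and 7.22% (together 25.8%), against 7.78% and 6.67% (together 14.5%) of the 11238 genes this bright. The share that fell lay close to that of equally bright genes and the share that rose lay above it, which is a description with no test of the list. The median difference was 0.02 for members and 0.00 for all genes tested. The groups did not overlap for 28 members with the knockdown above (19.0%, against 13.4% of all genes) and 22 with it below (15.0%, against 12.1%), together 34.0% against 25.5%.

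**Figure D1:**
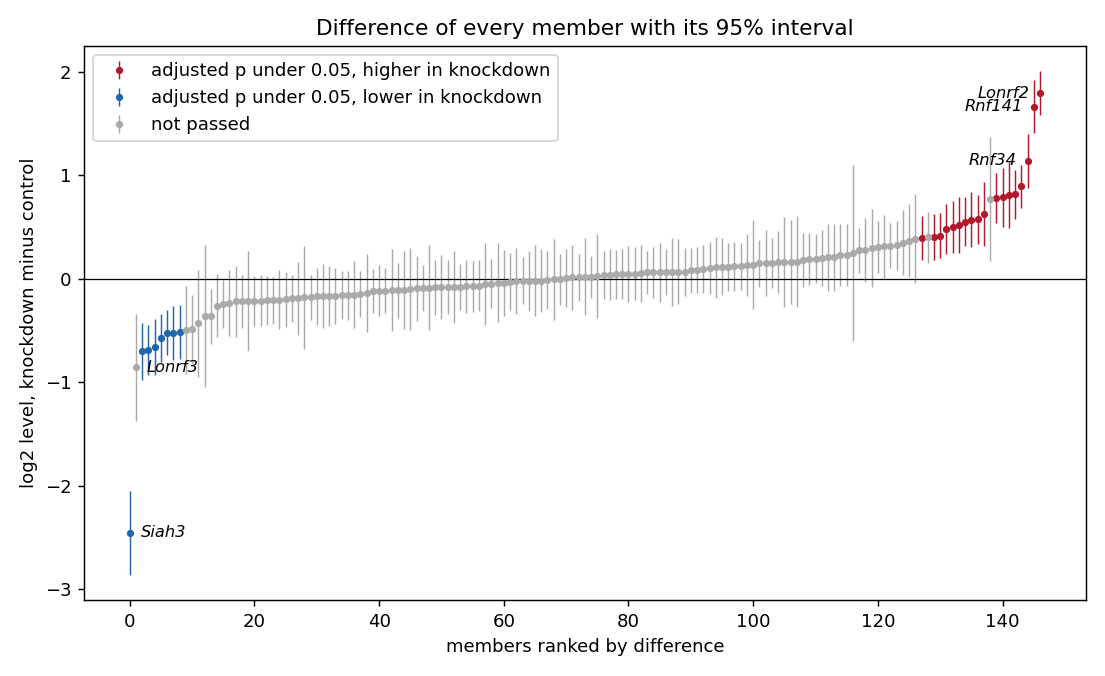
Difference in log2 level, knockdown minus control, of all 147 members in rank order, with 95% intervals from limma over 3 against 3 arrays. Siah3 stands apart at -2.46, and Lonrf2, Rnf141 and Rnf34 lie above 1.

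The counts depended on single arrays, for members as for all genes. The members that rose numbered 11, 8 and 9 on omission of knockdown arrays 1, 2 and 3, and 13, 9 and 11 on omission of control arrays 1, 2 and 3. Those that fell numbered 7, 3 and 2 on omission of the knockdown arrays and 6, 3 and 7 on omission of the control arrays, in the same order. Over all genes tested, 632, 418 and 492 rose on omission of the knockdown arrays and 800, 383 and 679 on omission of the control arrays, against 924 with all arrays. The RNA integrity number (RIN) was 9, 9.3 and 9.2 for the knockdown samples, against 9.2, 9 and 8.8 for the controls, and in a fit adjusted for it 7 members rose and 3 fell. In that fit 402 of all genes rose and 356 fell, against 924 and 807 without it. The 16 members whose call was lost there had 0.86 to 1.05 times the difference of the fit without it, and a larger SE in all 16. Called under all 15 alternatives were 9 members, of which Lonrf2, Rnf141, Rnf34, Rnf11, Trim11, Rnf19a and Lonrf1 rose and Siah3 and Rnf4 fell. The share of all genes called under all 15 was not counted, so whether 9 is many or few is not known. All 26 called members kept their direction in every alternative in which they were tested. Most of this was fixed in advance. The groups of these members do not overlap, so leaving out an array could not turn a direction. The replicate block, intensity trend and robust variance fits return the same difference as the fit reported.

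**Figure D2:**
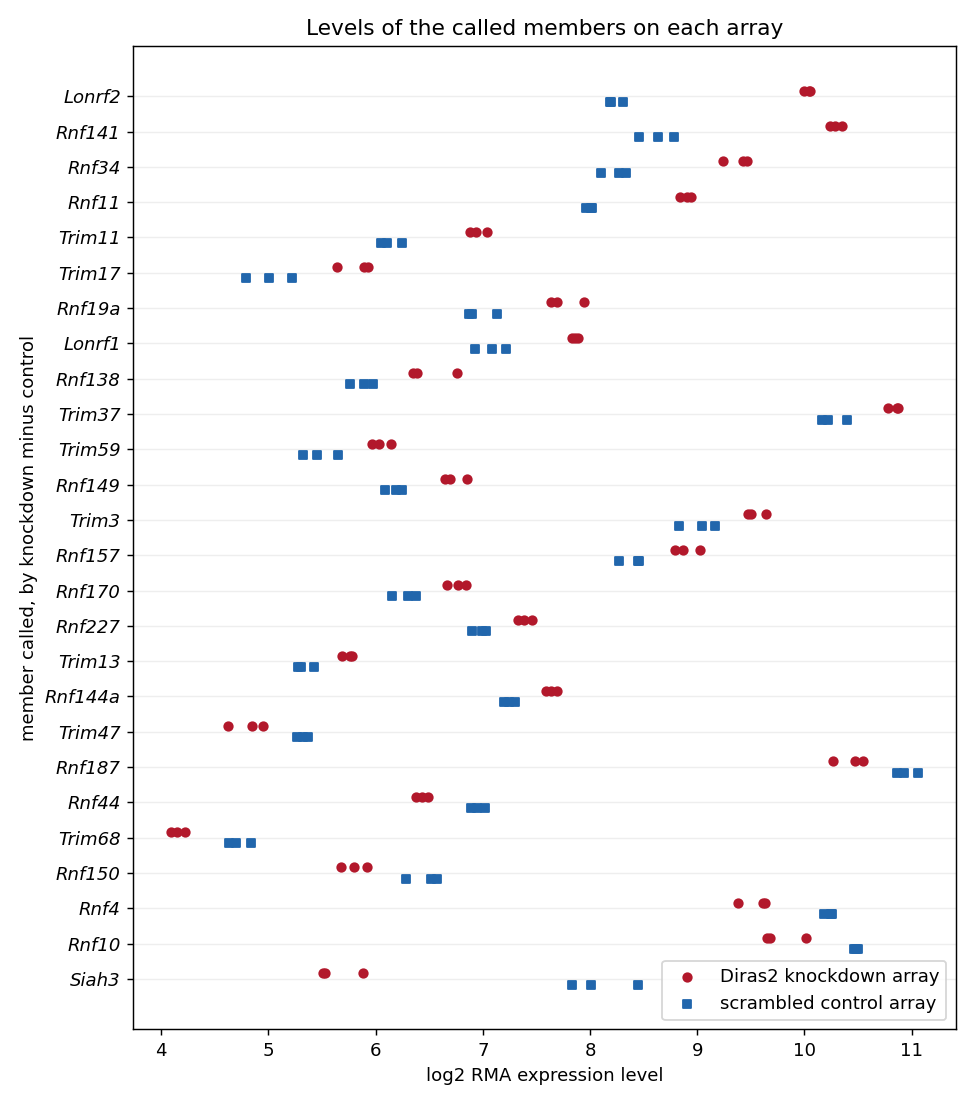
Log2 RMA level of the 26 called members on each array, with the 3 knockdown arrays as circles and the 3 control arrays as squares. The groups overlap for none of them, and the gap is widest for Siah3, 5.51 to 5.88 in knockdown against 7.83 to 8.45 in control. The members were picked by adjusted p, which favours groups that do not overlap, so this is no added evidence.

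The Lonrf proteins join a RING finger to a LON substrate-binding domain. Lonrf2, in mice a neuronal ligase of protein quality control that recognises misfolded proteins, had the largest increase of all members. Its levels were 10.04, 10.00 and 10.05 in the knockdown arrays, against 8.20, 8.19 and 8.31 in the control arrays. The arrays of each group lay close together and far from the other group, and the increase was 3.47-fold (1.80, SE 0.09, adjusted p 0.000213). Lonrf1 rose 1.72-fold, with 7.89, 7.83 and 7.86 in the knockdown arrays, against 7.09, 6.93 and 7.22 in the control arrays (adjusted p 0.00444). Lonrf3 lay on the other side of 0. Its levels were 5.23, 5.05 and 4.66 in the knockdown arrays, against 5.70, 5.50 and 6.31 in the control arrays, without overlap. The difference of -0.86 (SE 0.23) did not pass at an adjusted p of 0.0595, and passed at 0.0434 when only genes with a mean level of at least 5 were tested.

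Siah proteins are homologues of a Drosophila eye-development gene and turn over prolyl hydroxylases, synaptic vesicle proteins and the netrin receptor Dcc. Siah3, a mitochondrial protein that counters PINK1 in human cells, fell most of all members. Its levels were 5.88, 5.51 and 5.53 in the knockdown arrays, against 7.83, 8.01 and 8.45 in the control arrays. The highest knockdown array lay far below the lowest control array, and the decrease was 5.49-fold (-2.46, SE 0.18, adjusted p 0.000578). The other 3 Siah genes did not pass. Siah1a was 7.88, 7.89 and 7.88 in the knockdown arrays, against 7.71, 7.57 and 7.54 in the control arrays, a difference of 0.28 (95% interval 0.06 to 0.50, adjusted p 0.136). Siah1b differed by 0.21 (95% interval -0.11 to 0.53, adjusted p 0.469) and Siah2, a ligase of the hypoxia response, by -0.05 (95% interval -0.29 to 0.19, adjusted p 0.862). Siah1a and Siah1b are near-identical copies, so their probe sets may share signal.

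The upstream sequences of the 3 members with the largest increase and of Siah3 are shown because these 4 members changed most. They are the 250 bases before the start of the gene in RefSeq, build GRCm38.p6, read 5′ to 3′ on the gene's strand, at chr1:38836688-38836937 (minus strand, Lonrf2), chr7:110844382-110844631 (minus, Rnf141), chr5:122849938-122850187 (plus, Rnf34) and chr14:75455732-75455981 (plus, Siah3). Capitals mark matches on either strand to any of the motifs searched, which were the CRE (TGACGTCA), its half-site (TGACG), the E-box (CACGTG), the GC box (GGGCGG), the CCAAT box (CCAAT), the TATA box (TATAAA), AP-1 (TGANTCA) and the NRF1 motif. The half-site lies within the CRE, and matches may overlap.
Lonrf2: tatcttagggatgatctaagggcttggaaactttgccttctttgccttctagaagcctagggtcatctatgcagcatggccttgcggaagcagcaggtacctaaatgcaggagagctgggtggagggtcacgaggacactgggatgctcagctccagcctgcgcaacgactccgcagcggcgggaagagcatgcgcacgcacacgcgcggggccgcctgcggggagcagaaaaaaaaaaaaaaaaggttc
Rnf141: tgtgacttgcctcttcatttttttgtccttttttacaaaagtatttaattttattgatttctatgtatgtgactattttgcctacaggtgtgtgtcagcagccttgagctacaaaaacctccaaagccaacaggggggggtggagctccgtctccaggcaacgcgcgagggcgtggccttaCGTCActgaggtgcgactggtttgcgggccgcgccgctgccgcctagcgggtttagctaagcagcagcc
Rnf34: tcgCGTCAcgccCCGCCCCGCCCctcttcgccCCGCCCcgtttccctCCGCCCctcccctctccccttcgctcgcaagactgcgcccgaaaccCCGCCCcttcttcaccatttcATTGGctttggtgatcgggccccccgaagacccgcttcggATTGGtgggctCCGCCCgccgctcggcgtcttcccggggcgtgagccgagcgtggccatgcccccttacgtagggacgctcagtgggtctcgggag
Siah3: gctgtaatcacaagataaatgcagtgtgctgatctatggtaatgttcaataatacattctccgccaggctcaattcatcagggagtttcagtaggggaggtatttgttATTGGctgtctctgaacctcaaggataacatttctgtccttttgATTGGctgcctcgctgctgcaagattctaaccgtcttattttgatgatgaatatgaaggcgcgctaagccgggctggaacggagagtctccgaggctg
The Lonrf2 window held none of these motifs, and that of Rnf141 held 1 CRE half-site, with its first base at -69 from the start. The Rnf34 window was 70.8% G and C and held 6 GC boxes, 2 CCAAT boxes and 1 CRE half-site. The Siah3 window was 45.6% G and C and held 2 CCAAT boxes. Among all 32851 RefSeq windows of this length, 33.8% held a CCAAT box, 32.7% a GC box, 17.8% a CRE half-site, 12.4% a TATA box, 6.75% an AP-1 motif, 6.02% an E-box, 1.55% a CRE and 0.782% an NRF1 motif. Windows were at hand for 116 of the members and 16 of those called, and a match describes letters and not binding.

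Among RNF proteins of endosomes and trafficking, 3 of 7 rose and 0 fell by limma, with 1 below 0 at an unadjusted p under 0.05 and a list median of -0.18. Of all genes tested, 4.17% rose and 3.64% fell, against 7.78% and 6.67% of genes with a mean level of at least 5. These shares stand beside the count of every list below, and no list was tested as a set. Rnf34, which tags caspases and a GABA receptor subunit, was 9.46, 9.43 and 9.24 in the knockdown arrays, against 8.27, 8.10 and 8.34 in the control arrays, 2.20-fold higher (adjusted p 0.00132). Rnf11, a partner of Nedd4-type ligases and of the A20 complex that restrains NF-kappaB, was 8.94, 8.90 and 8.84 in the knockdown arrays, against 7.96, 8.02 and 8.01 in the control arrays, 1.86-fold higher (adjusted p 0.00147). For both genes every knockdown array stood above every control array. Rnf157, a neuronal relative of mahogunin, rose by 0.50 (SE 0.11, adjusted p 0.0299). This call was lost on omission of any single array (0.05005 to 0.0955) and in the RIN-adjusted fit (0.117). The other 4, Rnf152, Rnf126, Rnf41 and Rnf115, had differences of -0.49 to -0.18 and did not pass.

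Rnf141, a RING protein known chiefly from testis, rose 3.17-fold in these hippocampal cells. Its levels were 10.35, 10.28 and 10.24 in the knockdown arrays, against 8.78, 8.63 and 8.46 in the control arrays, a difference of 1.67 (SE 0.11, adjusted p 0.000481). The groups were far apart. A separate list of testis RNF and TRIM genes had 0 of 7 genes called higher and 0 lower by limma, and 0 at an unadjusted p under 0.05, with differences from -0.17 (Rnf148) to 0.23 (Trim69). That list was dim, with a median level of 2.93. Of the 50 members with a mean level under 5, 0 rose and 1 fell by limma.

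Among TRIM proteins with roles in neurons, 2 of 9 rose and 0 fell by limma, with 0 below 0 at an unadjusted p under 0.05. Trim37, a ligase of centrosomes and peroxisomes, was 10.86, 10.87 and 10.78 in the knockdown arrays, against 10.40, 10.16 and 10.22 in the control arrays, 1.49-fold higher (adjusted p 0.0141). Trim3, a partner of the kinesin KIF21B that acts on postsynaptic scaffolds, was 9.64, 9.47 and 9.50 in the knockdown arrays, against 9.17, 9.04 and 8.83 in the control arrays, 1.44-fold higher (adjusted p 0.0340). Neither gene overlapped between the groups. The Trim37 call was lost on omission of knockdown array 2 (0.0651) or control array 2 (0.0710) and in the RIN-adjusted fit (0.0741). The Trim3 call was lost on omission of any array but control array 1 (0.0805 to 0.112) and in the RIN-adjusted fit (0.144). Trim9 and Trim67, which act with Dcc in netrin-dependent axon branching and were named after their values were seen, had differences of -0.22 and 0.39 (adjusted p 0.327 and 0.290).

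Trim11 and Trim17 are neighbours on chromosome 11, with histone genes between them in RefSeq, and both rose. Trim11, a ligase of humanin and Pax6, was 6.88, 6.94 and 7.04 in the knockdown arrays, against 6.11, 6.25 and 6.05 in the control arrays, 1.76-fold higher (adjusted p 0.00328). Trim17, which drives Mcl-1 turnover in dying neurons, was 5.89, 5.93 and 5.64 in the knockdown arrays, against 5.01, 5.22 and 4.79 in the control arrays, 1.76-fold higher (adjusted p 0.0115). Both sets of arrays were apart. Rnf187, a coactivator of c-Jun on the same stretch, moved the other way, with 10.55, 10.47 and 10.27 in the knockdown arrays, against 10.93, 11.06 and 10.86 in the control arrays (difference -0.52, adjusted p 0.0299). The Trim17 call was lost on omission of knockdown array 2 (0.0600) and in the RIN-adjusted fit (0.0615). That of Rnf187 was lost on omission of knockdown array 2 (0.0915), knockdown array 3 (0.103), control array 1 (0.0606) or control array 2 (0.124) and in the RIN-adjusted fit (0.116). Trim59, a membrane-anchored TRIM protein, rose by 0.57 (SE 0.12, adjusted p 0.0230), a call that was lost on omission of knockdown array 2 (0.0825), knockdown array 3 (0.0907), control array 1 (0.0542) or control array 3 (0.0586) and in the RIN-adjusted fit (0.107).

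Of 8 RING-between-RING genes, 2 rose and 0 fell by limma, with 0 below 0 at an unadjusted p under 0.05. Rnf19a, or dorfin, known for tagging mutant SOD1, was 7.94, 7.64 and 7.69 in the knockdown arrays, against 7.13, 6.87 and 6.90 in the control arrays, 1.73-fold higher (adjusted p 0.00798). Its groups were clearly apart, and the call was kept on omission of any single array. Rnf144a, a ligase of the DNA repair kinase DNA-PKcs, rose by 0.39 (SE 0.09, adjusted p 0.0398), a call that was lost on omission of any single array (0.0637 to 0.137) and in the RIN-adjusted fit (0.148). Rnf19b, the closest relative of Rnf19a and named after its values were seen, differed by 0.17 (95% interval -0.27 to 0.60).

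Ligases of the DNA damage response and of SUMO chains moved both ways, with 1 of 6 higher and 1 lower. Rnf4, which binds SUMO chains and ubiquitinates the proteins that carry them, was 9.63, 9.61 and 9.38 in the knockdown arrays, against 10.26, 10.18 and 10.25 in the control arrays, 1.61-fold lower (adjusted p 0.00724). Rnf138, a ligase of DNA end resection, was 6.76, 6.39 and 6.35 in the knockdown arrays, against 5.98, 5.89 and 5.76 in the control arrays, a difference of 0.62 (SE 0.13, adjusted p 0.0291). In neither gene did the groups overlap. The Rnf4 call was kept on omission of any single array. The Rnf138 call was lost on omission of any array but control array 1 (0.0541 to 0.105) and in the RIN-adjusted fit (0.0963).

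Of 11 ligases of the endoplasmic reticulum membrane, 1 rose and 0 fell by limma, with 3 above and 1 below 0 at an unadjusted p under 0.05. Rnf170, which marks activated IP3 receptors for degradation, rose by 0.48 (SE 0.11, adjusted p 0.0300), a call that was lost on omission of any array but control array 1 (0.0674 to 0.117) and in the RIN-adjusted fit (0.134). Rnf26, an organiser of endosome position, had a difference of 0.32 (adjusted p 0.0874) by its brightest probe set, whereas its other probe sets gave -0.26 and 0.16. Rnf185, of endoplasmic reticulum-associated degradation and named after its values were seen, had a difference of -0.49 with an adjusted p of 0.0896, which became 0.0443 in the replicate block fit.

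Ligases with a protease-associated domain sit in endosomal and plasma membranes, and of 9 measured 1 rose and 1 fell. Rnf149, a ligase of Braf, was 6.69, 6.65 and 6.85 in the knockdown arrays, against 6.25, 6.09 and 6.19 in the control arrays (difference 0.55, adjusted p 0.0163). Rnf150 was 5.92, 5.68 and 5.80 in the knockdown arrays, against 6.57, 6.52 and 6.28 in the control arrays (difference -0.66, adjusted p 0.0144). Neither gene overlapped between the groups. The Rnf149 call was lost on omission of knockdown array 3 (0.0672) or control array 2 (0.0796) and in the RIN-adjusted fit (0.0787). The Rnf150 call was lost on omission of knockdown array 2 (0.0679), knockdown array 3 (0.0578) or control array 2 (0.0722) and in the RIN-adjusted fit (0.0549).

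**Figure D3:**
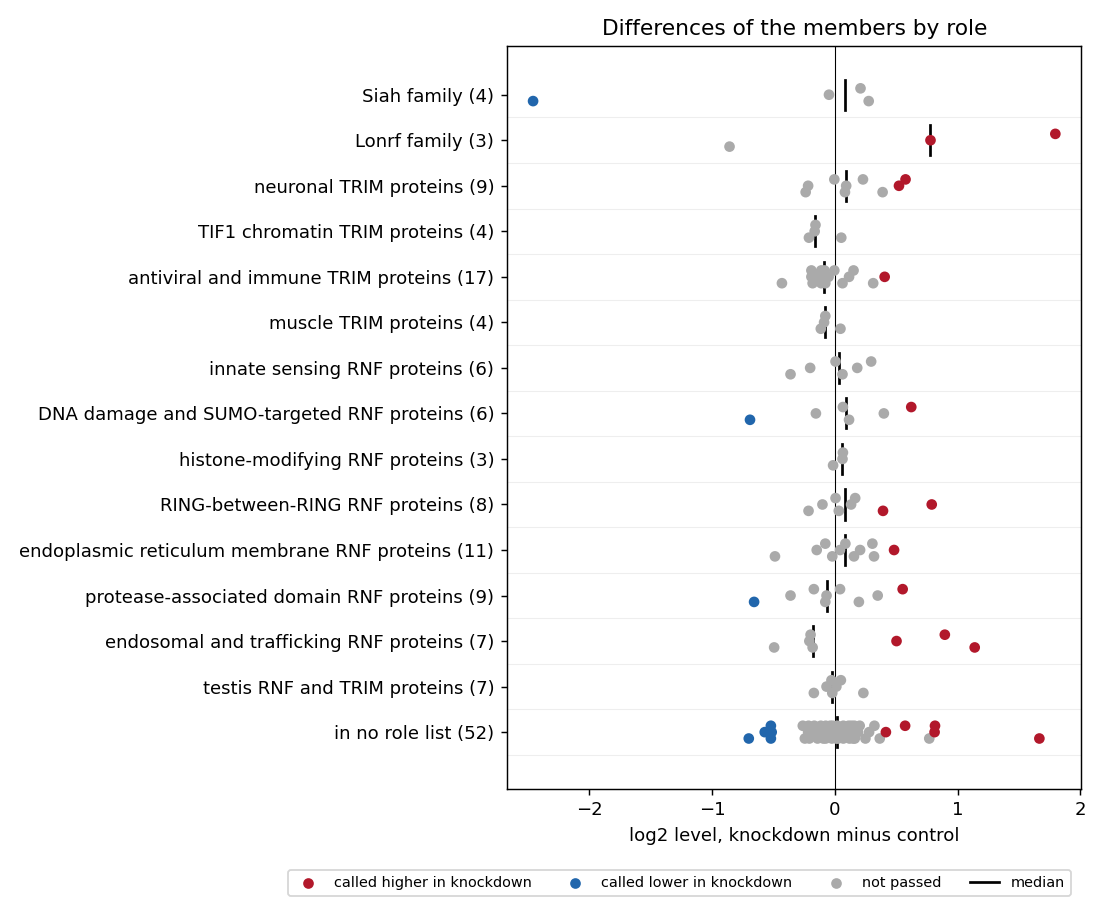
Difference in log2 level, knockdown minus control, of each member by role, with the number of measured members in brackets and a bar at the median of each list. Points of the TIF1, histone, muscle, testis and innate sensing lists lie between -0.36 and 0.30, and none of them was called. The muscle and testis lists are dim, with median levels of 3.68 and 2.93.

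Of 17 TRIM genes of antiviral defence and immunity, 1 rose and 0 fell by limma, with 2 above and 0 below 0 at an unadjusted p under 0.05. This list was dim, with a median level of 3.42. The one that rose was Trim13, an endoplasmic reticulum protein of autophagy, at 0.41 (adjusted p 0.0402), a call that was lost on omission of any single array (0.0502 to 0.153) and in the RIN-adjusted fit (0.161) and with an intensity trend (0.0594). Trim30a, from a cluster of similar copies whose probe sets may share signal, was 3.12, 2.86 and 2.88 in the knockdown arrays, against 2.87, 2.49 and 2.56 in the control arrays (adjusted p 0.229). Of 9 interferon response genes, 0 rose and 0 fell by limma and 0 had an unadjusted p under 0.05, with a mean level over the list of 3.73 to 3.80 in the knockdown arrays, against 3.72 to 3.84 in the control arrays.

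In the innate sensing list (6 genes), the TIF1 chromatin list (4), the histone-modifying list (3) and the muscle list (4), 0 genes were called by limma and 0 had an unadjusted p under 0.05. Their median levels were 5.39, 8.15, 8.55 and 3.68, so the muscle list was dim and could show little change. Rnf114 and Rnf135, a cofactor of the RNA sensor RIG-I, had differences of 0.30 and -0.20. Trim33 and Trim28, corepressors of the TIF1 group, had -0.21 and -0.16. Rnf20 and Rnf40, which together ubiquitinate histone H2B, had 0.06 and 0.07, and the muscle ligases Trim55 and Trim63 had -0.11 and -0.08.

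Of the 52 members in no role list, 5 rose and 5 fell. Rnf10, a messenger between NMDA receptors and the nucleus, was 10.01, 9.68 and 9.65 in the knockdown arrays, against 10.50, 10.48 and 10.46 in the control arrays, 1.62-fold lower (adjusted p 0.0115). Trim68, described as a ligase of the androgen receptor, was 4.09, 4.22 and 4.15 in the knockdown arrays, against 4.84, 4.63 and 4.70 in the control arrays, 1.48-fold lower (adjusted p 0.0137). The groups did not overlap in either gene. The Rnf10 call was lost on omission of knockdown array 2 (0.0590), knockdown array 3 (0.0514) or control array 2 (0.0575) and in the RIN-adjusted fit (0.0619), and that of Trim68 was lost on omission of knockdown array 3 (0.0549). Rnf44 and Trim47 fell by 0.52 and 0.51 on the log2 scale (adjusted p 0.0147 and 0.0312). The Rnf44 call was lost on omission of knockdown array 2 (0.0504), knockdown array 3 (0.0640) or control array 2 (0.0742) and in the RIN-adjusted fit (0.0561). The Trim47 call was lost on omission of any single array (0.0503 to 0.115) and in the RIN-adjusted fit (0.138). Rnf227, named after its values were seen and listed by RefSeq as a long non-coding RNA, rose by 0.42 (adjusted p 0.0366), a call that was lost on omission of any single array (0.0594 to 0.134) and in the RIN-adjusted fit (0.154).

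Rnf112, a brain RING protein with a GTPase domain that is also called neurolastin, differed in its call once samples of the same replicate number were compared, and was named for this. Its levels were 7.97, 7.24 and 7.15 in the knockdown arrays, against 7.15, 6.51 and 6.39 in the control arrays. Array 1 was the highest of each group, and the groups met at one value. Within a replicate number the knockdown was higher by 0.82, 0.73 and 0.76. The difference of 0.77 (SE 0.26) had an adjusted p of 0.131 by limma, and 0.00465 in the replicate block fit.

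**Figure D4:**
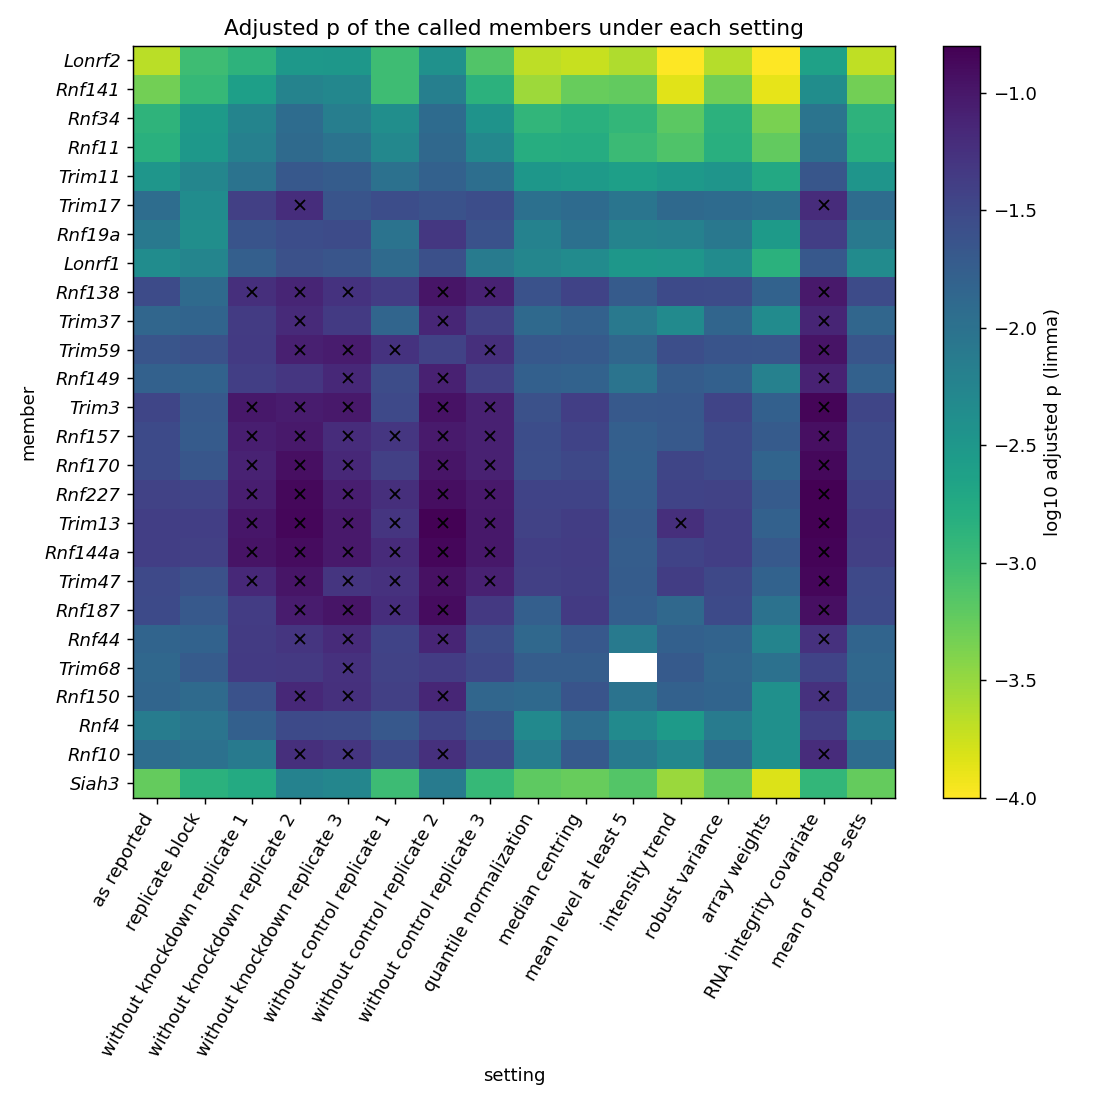
Adjusted p by limma of the 26 called members (rows) as reported and under 15 alternatives (columns), on a log10 colour scale, with a cross where it is 0.05 or higher and a blank where the gene was not tested. The 9 members without a cross include Siah3, Lonrf2, Rnf141, Rnf34 and Rnf4.

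Other genes of the ubiquitin pathway were counted for comparison. Of 179 measured, 9 rose and 8 fell, or 5.03% and 4.47% (together 9.50%), against 4.17% and 3.64% of all genes tested. These genes were bright, with a median level of 8.665 against 5.063 for all genes. Among all genes with a mean level of at least 5, 7.78% rose and 6.67% fell (together 14.5%), which is more than in this list. In the replicate block fit 16 of the 179 rose and 12 fell, where 6.05% and 5.64% of all genes did. Of the 11238 genes with a mean level of at least 5, 1243 rose and 1126 fell in that fit, again more than in this list by share. Usp8, an endosomal deubiquitinase and partner of the ligase Rnf41, was 8.09, 7.90 and 7.91 in the knockdown arrays, against 9.12, 9.10 and 9.21 in the control arrays, 2.26-fold lower (adjusted p 0.000834). Rnf41 itself, named after its values were seen, had a difference of -0.21 (adjusted p 0.308). Of 36 RING ligases with other names 4 rose and 2 fell. Mib1, which activates Notch ligands, was 8.90, 8.64 and 8.78 in the knockdown arrays, against 7.72, 7.29 and 6.87 in the control arrays, 2.79-fold higher (adjusted p 0.00434). Traf6, a signalling ligase of Toll-like receptors, rose 1.95-fold (adjusted p 0.00324), and Znrf3, which removes Wnt receptors, fell by 0.67 on the log2 scale (adjusted p 0.0182). The Znrf3 call was lost on omission of knockdown array 1 (0.0566), knockdown array 3 (0.0769) or control array 2 (0.0788), and those of Usp8, Mib1 and Traf6 held on omission of any single array.

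Of 29 E2 genes 1 rose and 1 fell. Ube2j1, an E2 of endoplasmic reticulum-associated degradation, fell by 0.80 on the log2 scale (SE 0.12, adjusted p 0.00803), a call that was kept on omission of any single array. Ube2q2 rose by 0.65 (adjusted p 0.0171), a call that was lost on omission of knockdown array 2 (0.0727) or control array 2 (0.0802) and in the RIN-adjusted fit (0.0619). Cdc34, the E2 of cullin ligases, had 0.45 (adjusted p 0.0642). Of 24 HECT ligases 3 rose and 1 fell. Trip12 and Hecw1 rose by 0.58 and 0.50 and Nedd4l, a regulator of ion channels, fell by 0.54 on the log2 scale (adjusted p 0.0164, 0.0259 and 0.0323). The Trip12 call was lost on omission of knockdown array 3 (0.0692) or control array 2 (0.0805). The Hecw1 call was lost on omission of any array but control array 1 (0.0676 to 0.09997) and in the RIN-adjusted fit (0.118) and with the mean of probe sets (0.0759). The Nedd4l call was lost on omission of any array but control array 3 (0.0731 to 0.124) and in the RIN-adjusted fit (0.0573).

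Of 25 cullin-RING genes 1 rose and 1 fell, and 4 and 2 in the replicate block fit. The scaffold Cul5 rose by 0.38 and its elongin C adaptor Eloc fell by 0.82 on the log2 scale (adjusted p 0.0421 and 0.0215). The Cul5 call was lost on omission of any single array (0.0713 to 0.148) and in the RIN-adjusted fit (0.164) and after quantile normalisation (0.0520) and with the mean of probe sets (0.0783). The Eloc call was lost on omission of knockdown array 2 (0.0768), knockdown array 3 (0.0719) or control array 2 (0.0680) and in the RIN-adjusted fit (0.0644). Cul4a, a scaffold of DNA repair ligases, had 0.45 (adjusted p 0.0586, 0.0260 with the replicate block). Of 34 deubiquitinases 0 rose and 2 fell by limma, with 7 above and 6 below 0 at an unadjusted p under 0.05. With the replicate block 2 rose and 3 fell. Besides Usp8, Usp48 fell by 0.41 on the log2 scale (adjusted p 0.0405), a call that was lost on omission of any single array (0.0674 to 0.132) and in the RIN-adjusted fit (0.104) and after median centring (0.0655). Usp28, a stabiliser of Myc, had 0.49 (adjusted p 0.0546, 0.0215 with the block). Of 30 proteasome subunits 0 rose and 1 fell by limma, with 2 above and 3 below 0 at an unadjusted p under 0.05. The subunit that fell was Psmd12 of the regulatory particle, by 0.44 on the log2 scale (adjusted p 0.0299). The Psmd12 call was lost on omission of any single array (0.0522 to 0.112) and in the RIN-adjusted fit (0.134). Psma6 and Psmd1 had 0.48 and 0.34 (adjusted p 0.0525 and 0.0717, and 0.0239 for Psma6 with the block), and the E1 enzyme Uba6 had -0.02.

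**Figure D5:**
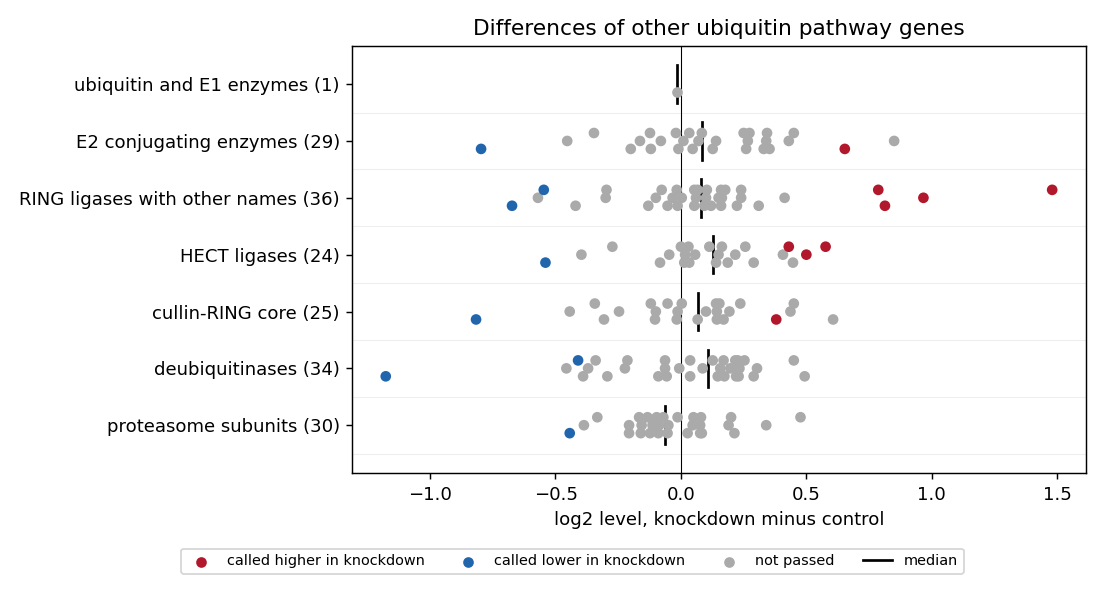
Difference in log2 level, knockdown minus control, of 179 other ubiquitin pathway genes by list, with the number of measured genes in brackets and a bar at each median. Mib1 at 1.48 and Usp8 at -1.18 are the extremes, and the list medians lie between -0.06 and 0.13.

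Known partners and substrates of the ligases were read next. Of 13 Siah partners 1 rose and 0 fell by limma, with 3 above and 1 below 0 at an unadjusted p under 0.05. Peg3, an imprinted partner of Siah1, rose by 0.49 (SE 0.10, adjusted p 0.0265), a call that was lost on omission of any array but control array 1 (0.0654 to 0.115) and in the RIN-adjusted fit (0.109). Sncaip, the Siah substrate synphilin-1, was 6.10, 6.38 and 6.34 in the knockdown arrays, against 6.57, 6.98 and 6.95 in the control arrays (adjusted p 0.0515, 0.0136 with the replicate block). Egln2, a prolyl hydroxylase, differed by 0.24 (adjusted p 0.186).

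Of 9 partners of neuronal TRIM proteins 1 rose and 1 fell. The netrin receptor Unc5c rose by 0.52 and Bcl2l11, a cell death protein bound by Trim2, fell by 0.49 on the log2 scale (adjusted p 0.0457 and 0.0426). The Unc5c call was lost on omission of any array but control array 3 (0.0612 to 0.151) and after quantile normalisation (0.0599). The Bcl2l11 call was lost on omission of any array but control array 1 (0.0821 to 0.150) and in the RIN-adjusted fit (0.172) and with an intensity trend (0.0554) and after median centring (0.0531). The postsynaptic scaffold Dlgap1 had -0.41 (adjusted p 0.246). Of 10 immune signalling genes 2 rose and 2 fell. Tlr3, a sensor of double-stranded RNA, and Ikbkg, the NEMO subunit of the NF-kappaB kinase, fell by 0.73 and 0.62 on the log2 scale, and the adaptor Tirap rose by 0.53 (adjusted p 0.00503, 0.0334 and 0.0205). The Tlr3 call was kept on omission of any single array. The Ikbkg call was lost on omission of knockdown array 2 (0.128), knockdown array 3 (0.121), control array 1 (0.0806) or control array 2 (0.133) and in the RIN-adjusted fit (0.107) and after median centring (0.0531). The Tirap call was lost on omission of any array but knockdown array 1 (0.0504 to 0.0871) and in the RIN-adjusted fit (0.0997).

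Cell type markers were read on the same arrays, since in bulk RNA fewer cells of a type and less RNA per cell cannot be told apart. Of 4 markers of dividing cells 3 rose, Mki67 by 1.48, Top2a by 1.32 and Cdk1 by 1.01, and the mean level over the list was 4.62 to 5.33 in the knockdown arrays, against 3.89 to 4.06 in the control arrays. Neuron markers averaged 10.59 to 10.94 in the knockdown arrays, against 10.80 to 11.12 in the control arrays, and 1 of 5, the synaptic gene Snap25, fell. The neuron markers went both ways, with 1 above 0 (by 0.39) and 2 below 0 at an unadjusted p under 0.05. Inhibitory neuron markers averaged 7.68 to 8.15 in the knockdown arrays, against 7.99 to 8.58 in the control arrays, and 1 of 5, the interneuron factor Lhx6, fell. Oligodendrocyte lineage markers averaged 6.04 to 7.04 in the knockdown arrays, against 5.80 to 6.21 in the control arrays, and 1 of 6, the precursor receptor Pdgfra, rose by 2.80. Pdgfra weighs heavily in that average. The median difference of the list was 0.18, 2 of its genes lay below 0, and only Pdgfra had an unadjusted p under 0.05. In the lists of excitatory neurons, astrocytes, microglia, endothelial cells, fibroblasts and skeletal muscle, 0 genes were called by limma. At an unadjusted p under 0.05 the astrocyte, microglia and fibroblast lists held 1, 2 and 1 genes, all below 0. The excitatory neuron, endothelial and skeletal muscle lists held 0. In the replicate block fit 1 gene fell in each of the astrocyte, microglia and fibroblast lists. These were the gap junction gene Gja1 (adjusted p 0.0385), the microglial receptor Csf1r (0.0339) and the matrix gene Lum (0.0442). In that fit the synaptic vesicle gene Syn1 (0.0125) and the interneuron factor Dlx2 (0.0442) fell beside Snap25 and Lhx6. The Lhx6 call was kept on omission of any single array. The Snap25 call was lost on omission of any array but control array 3 (0.0811 to 0.168) and in the RIN-adjusted fit (0.0966) and after median centring (0.0700) and after quantile normalisation (0.0592). That of Pdgfra was lost on omission of control array 2 (0.0575) and in the RIN-adjusted fit (0.0514), that of Mki67 was lost on omission of knockdown array 2 (0.0550), knockdown array 3 (0.0713) or control array 2 (0.0689), that of Top2a was lost on omission of knockdown array 2 (0.0963), knockdown array 3 (0.0815), control array 2 (0.0944) or control array 3 (0.0551) and in the RIN-adjusted fit (0.0940) and that of Cdk1 was lost on omission of knockdown array 3 (0.0664), control array 2 (0.113) or control array 3 (0.0655) and in the RIN-adjusted fit (0.0966). No marker was at 0 on this scale, and the part of these shifts in the results for the ligases was not tested.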

How the data were processed

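Total RNA of 6 samples was amplified and biotin-labelled with WT kits and hybridised to Affymetrix arrays, per the labels' protocols. The authors deposited log2 values for each probe set, summarised by RMA with Expression Console (Affymetrix, version 1.2.1.20), per the submitters' processing notes. This summary equalises the distributions of the arrays, so a shift shared by most genes would not show, and differences of dim genes are understated. Precision is set by having 3 arrays a group. Of 41345 probe sets, 23521 carry 1 gene symbol in the platform annotation. The brightest per gene was kept, which bears on 8 members, none of them called. Another 12 probe sets name a member beside other genes and were not used.

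Groups were taken from the titles. Differences, knockdown minus control, were fitted over 22180 genes with limma 3.58.1 in R 4.3.3 (lmFit, eBayes) and Benjamini-Hochberg adjustment over all genes, with 0.05 as the threshold for a call. Folds are these differences taken off the log2 scale. The fit was tested on simulated data in which all arrays were drawn independently, so that test does not cover samples that share a replicate number. Named genes were Diras2, all Siah and Lonrf members, the 12 called members with the largest increase and the up to 12 with the largest decrease, the 2 of each role list and the 3 of each other list with the smallest p, and those said to be named after their values were seen. Members and lists were chosen with earlier results of these data known. Promoter windows are RefSeq's, and a genome build for the array annotation was not given in the sources used here.

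The groups share replicate numbers. Deviations from the group means correlated at 0.43, 0.12 and 0.37 within the same number, against -0.38 to 0.06 across numbers. The deviations of a group cancel out for each gene, so high values within numbers push those across numbers down. The values across numbers are thus no independent baseline. All same-numbered values exceed 0.1, so a replicate block was fitted as an alternative, on the strength of the data and not the labels. The calls reported here come from the fit without this block and leave any pairing out, except where the block is named. Alternatives were this replicate block, each array left out, quantile normalisation, median centring, a mean level of at least 5, an intensity trend, robust variance, array weights, RNA integrity as a covariate and averaging the probe sets of a gene.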

Additional observations from a re-analysis of the deposited data

How the results depend on the processing

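On omission of 1 array the members that rose numbered 8 to 13 and those that fell 2 to 7, against 18 and 8 with all arrays. Over all genes 383 to 800 rose and 306 to 687 fell, against 924 and 807. In the RIN-adjusted fit they numbered 7 and 3, of all genes 402 and 356, and the differences that lost their call kept 0.86 to 1.05 times their size with larger SEs. With the replicate block 19 rose and 9 fell, including all of those called without it, and the added members were Rnf112 and Rnf185. The other alternatives gave 17 to 20 higher and 8 to 9 lower. Over all genes the block called 1341 higher and 1252 lower. Diras2 passed under all 15 alternatives. Median centring moved the median difference of all genes to 0.02. Signal over background was not examined, so how far it limits the dim genes is not given.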
